A study of Mus musculus with 16 samples.

Results

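The genes described here belong to the endothelial and blood lineages and were measured by RNA-Seq in differentiating mouse embryoid bodies (EBs). They were Kdr, Pecam1, Cdh5, Tal1, Gata1, Gata2, Lmo2, Etv2, Hba-x and Hbb-bh1, chosen by their symbols as known lineage genes, and were 10 of the 24222 genes in the deposited matrix. They held 15 of its 33702 RefSeq transcript rows. All 10 had a value above 0 in at least 1 library and entered the test.

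The day 0 group consisted of EBs grown for 4 days from a suspension of R1 mouse embryonic stem cells at 35000 cells/ml, in medium without Lif and before retinoic acid (RA) was added. The day 4 group consisted of such EBs after 4 further days with 2 µM RA. R1 is an established mouse embryonic stem cell line, and EBs are free-floating aggregates in which cells of many types arise together. No untreated day 4 EBs were analysed here, so the effects of RA and of the additional days in culture cannot be told apart. Each day had 2 RNA samples, from a repeat of the whole procedure, and each of these 4 RNA samples was divided into 4 vials. A vial held a mix of in vitro transcribed (IVT) mouse spike-ins, named mix 1, 2 or 3, or none (mix 4), so that 16 libraries were sequenced, 8 for each day. ERCC mix 1 accompanied mixes 1 and 3, and ERCC mix 2 the others. Vials of an RNA sample are technical splits, so each RNA sample was used as the mean of its 4 vials and n is 2 for each day.

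In the embryo, endothelial and primitive blood cells arise from mesoderm that carries the VEGF receptor Kdr. The ETS factor Etv2 acts early in this step, and Tal1, Lmo2 and the GATA factors form DNA-bound complexes that drive blood gene programmes. Cdh5 and Pecam1 mark the junctions of vessel walls, and the embryonic globins Hba-x and Hbb-bh1 are the products of primitive red cells.

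Between day 0 and day 4, the transcription regulators Etv2, Tal1, Lmo2 and Gata1 and the VEGF receptor Kdr were lower, Gata2 did not pass the test, and the embryonic globin Hba-x was higher. Of the 10 genes, 5 fell (Kdr, Tal1, Gata1, Lmo2 and Etv2), 1 rose (Hba-x) and 4 did not pass the test (Pecam1, Cdh5, Gata2 and Hbb-bh1). Over all 20543 genes tested, 14.5% fell and 16% rose at an adjusted p of at most 0.05 in limma. When day 4 replicate 1 or day 4 replicate 2 was left out, 0 genes passed in limma (4871 and 4577 had an unadjusted p of at most 0.05), and so none of the 10. The median log2 fold change of the 10 genes was -0.88, against -0.03 over all genes tested. After a correction for GC content these medians were -0.66 and 0.03. The 10 genes were chosen with earlier results of these data known, so the medians are a description and not a test. The decrease covered levels from 17.4 FPKM at day 0 to 0.021 FPKM at day 4 in replicate 1 for Etv2, and from 44.8 to 17.5 FPKM for Kdr. FPKM are fragments per kilobase of transcript, scaled to the size of the library, so these levels are per length. Fold changes are on the scale of log2(FPKM + 0.1), day 4 against day 0, which understates the change of genes with low values. EBs are a mixture of cells, so fewer cells of a type and less RNA per cell cannot be told apart.

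**Figure D1:**
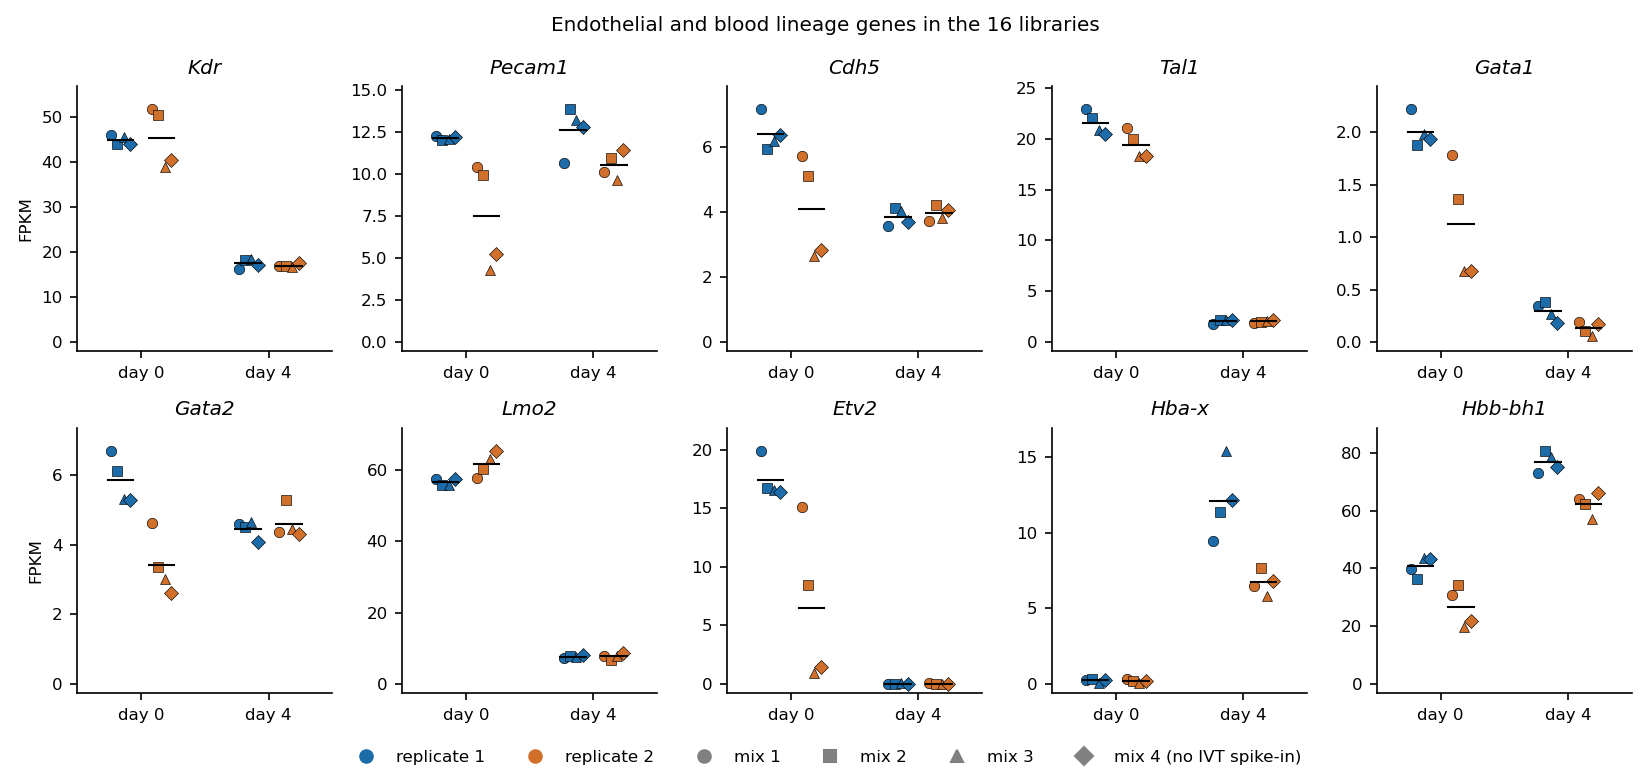
FPKM (y axis, from 0) of the 10 genes in each of the 16 libraries at day 0 and day 4 (x axis). Colours give the replicate, symbols the mix of the vial and black lines the mean of the 4 vials of an RNA sample. The vials of the 2 days do not overlap for Kdr, Tal1, Gata1, Lmo2, Etv2, Hba-x and Hbb-bh1. The share of all genes without such overlap was not counted, so this only describes the genes shown.

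The libraries differed in ways that the groups do not account for. Correlations were taken across the 14095 transcripts with a mean of at least 1 FPKM. The mix 3 and mix 4 vials of day 0 replicate 2 had median correlations of 0.688 and 0.725 with the other day 0 libraries. With the day 4 libraries their medians were 0.823 and 0.825. The other 6 day 0 libraries had medians of 0.936 to 0.969 with day 0. The log2 level of the most GC-rich transcripts relative to the most GC-poor ones, set against the mean of the libraries, was 1.12 to 2.67 in these 6, -2.26 and -1.84 in the 2 vials that stood apart, and -1.68 to -0.41 at day 4. The GC content of the transcripts measured therefore moved with the day and, within day 0 replicate 2, with the vial, and its part in the results was not tested. Values without the 2 vials, with day 0 replicate 2 taken from its mix 1 and 2 vials, are given beside the results, a choice made after seeing the data. The share of all genes called depended on the fit. Without the 2 vials 27.0% rose and 33.5% fell, with the replicate block 22.5% rose and 29.1% fell, and after the GC correction 27.5% rose and 24.3% fell. Counts of genes under these fits are to be read against these shares.

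Kdr encodes the main VEGF receptor of endothelial cells and their mesodermal precursors, and lies on chromosome 5 (GRCm38.p6, 75932827-75979072). Its day 0 vials had a lowest value of 38.8, a median of 44.7 and a highest value of 51.6 FPKM. Its day 4 vials had a lowest value of 16.2, a median of 17.0 and a highest value of 18.4 FPKM. Every day 0 vial was above every day 4 vial, and within each day the RNA samples were close, with means of 44.8 and 45.3 FPKM at day 0, against 17.5 and 17.0 FPKM at day 4. Kdr fell by 1.38 on the log2 scale (SE 0.13, 95% interval -1.75 to -1.01, limma adjusted p = 0.00894). The log2 fold change was -1.47 when day 0 replicate 2 was taken from its mix 1 and 2 vials and -1.35 after a correction for GC content. When day 0 replicate 2 was taken from the mix 3 and 4 vials alone, it was -1.28 and missed the threshold (adjusted p = 0.0528).

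Pecam1, an adhesion molecule of endothelial cells and platelets, lies on chromosome 11 (106654213-106715281). At day 0 its vials ranged from 4.30 to 12.3 FPKM, with a median of 11.2 FPKM, and from 9.65 to 13.8 FPKM at day 4, with a median of 11.2 FPKM. The days overlapped, and the lowest day 0 values, 4.30 and 5.22 FPKM, were those of the mix 3 and mix 4 vials of replicate 2. Pecam1 had a log2 fold change of 0.27 (SE 0.30, 95% interval -0.58 to 1.12, limma adjusted p = 0.516). It was 0.05 without these 2 vials. After the GC correction it was 0.43, and it passed the threshold only when the replicate block was added to that correction (adjusted p = 0.0268).

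Cdh5, or VE-cadherin, is the cadherin of endothelial junctions and lies on chromosome 8 (104101613-104144504). Its vials ranged from 2.65 to 7.17 FPKM at day 0, with a median of 5.85 FPKM, and from 3.59 to 4.23 FPKM at day 4, with a median of 3.94 FPKM. The mix 3 and mix 4 vials of day 0 replicate 2, at 2.65 and 2.84 FPKM, lay below all day 4 vials, and the other 6 day 0 vials, from 5.12 FPKM upwards, lay above them. Cdh5 had a log2 fold change of -0.38 (SE 0.29, 95% interval -1.20 to 0.44, limma adjusted p = 0.371). Without these 2 vials it was -0.58 and passed the threshold (adjusted p = 0.0239), and after the GC correction it was 0.02 (adjusted p = 0.884). The call for Cdh5 thus depended on the day 0 vials, and the correction for GC content brought its value to near 0.

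Etv2, the ETS factor that sets up the endothelial and blood programme in early mesoderm, lies on chromosome 7 (30633616-30636509). At day 0 its vials of replicate 1 had 19.9, 16.7, 16.5 and 16.4 FPKM, and those of replicate 2 had 15.1, 8.43, 0.973 and 1.43 FPKM, in the order of mixes 1 to 4. At day 4 it was listed at 0 in 5 of 8 vials, and the other 3 had 0.029, 0.056 and 0.068 FPKM. All day 0 vials were above all day 4 vials, but day 0 replicate 2 alone spanned from 0.973 to 15.1 FPKM between vials of a single RNA. Etv2 fell, with a log2 fold change of -6.49 (SE 0.55, 95% interval -8.05 to -4.94, limma adjusted p = 0.00740). With day 0 replicate 2 from its mix 1 and 2 vials the log2 fold change was -6.92 (adjusted p = 0.00120), and with the mix 3 and 4 vials alone it was -5.32 (adjusted p = 0.144). After the GC correction it was -5.34. Since Etv2 was near 0 at day 4, the value depended on the offset, with -8.52 for an offset of 0.01 FPKM and -3.52 for 1 FPKM. The Etv2 transcript has a GC content of 59.2%, the highest of the 15 transcripts, and its level in day 0 replicate 2 moved with the GC shift of the vials. The log2 level of its mix 3 and 4 vials relative to its mix 1 and 2 vials was -3.19 there. For Gata2, with a GC content of 58.2%, this value was -0.495. After the GC correction the values were -0.91 for Etv2 and 1.66 for Gata2. The part of GC content in the spread of Etv2 between vials was not tested.

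**Figure D2:**
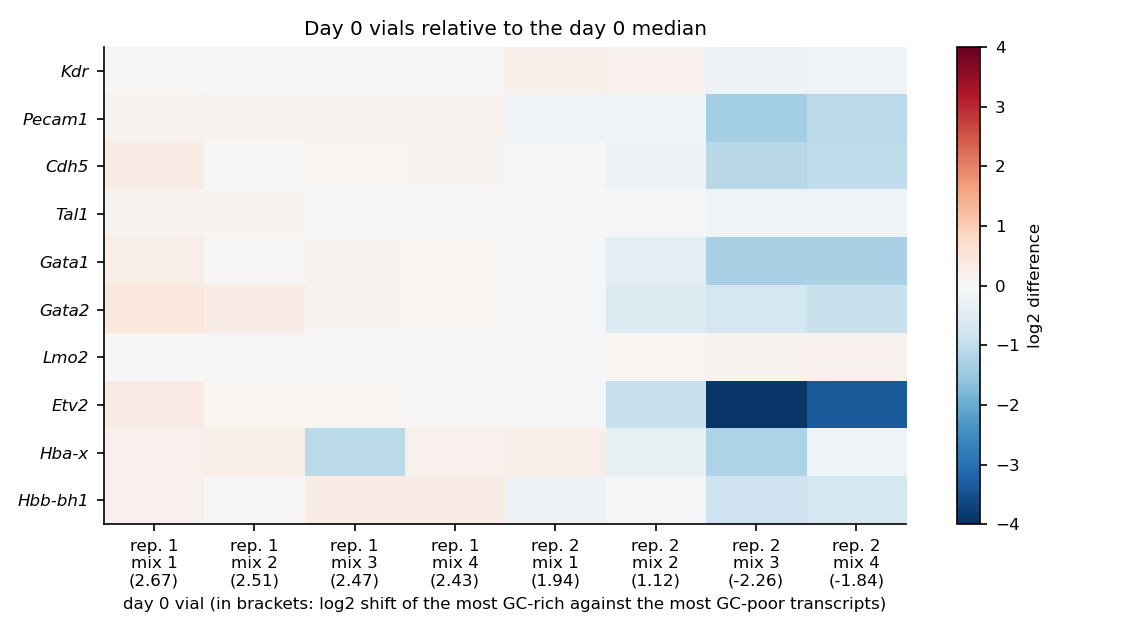
Heat map of the 10 genes (rows) in the 8 day 0 vials (columns), as the log2(FPKM + 0.1) difference from the day 0 median (colour scale, -4 to 4), with the GC shift of each vial in brackets. Etv2 is the gene furthest below the median in the mix 3 and mix 4 vials of replicate 2, while Tal1 and Lmo2 stay near it.

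Tal1 encodes the basic helix-loop-helix factor at the core of the blood gene complexes and lies on chromosome 4 (115056426-115071755). The vials of day 0 ranged from 18.3 to 22.9 FPKM, with a median of 20.7 FPKM, and those of day 4 from 1.80 to 2.20 FPKM, with a median of 2.11 FPKM. The days were far apart and all day 0 vials, the mix 3 and mix 4 vials of replicate 2 included, were close to each other. Tal1 fell by 3.25 on the log2 scale (SE 0.17, 95% interval -3.74 to -2.77, limma adjusted p = 0.00462). The log2 fold change was -3.29 without these 2 vials and -3.21 with them alone in day 0 replicate 2, and both passed the threshold. After the GC correction it was -2.76 (limma adjusted p = 0.00320).

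Lmo2 encodes the LIM-only protein that bridges Tal1 and the GATA factors and lies on chromosome 2 (103957903-103981878). Its vials ranged from 55.8 to 65.1 FPKM at day 0, with a median of 57.6 FPKM, and from 6.85 to 8.74 FPKM at day 4, with a median of 7.84 FPKM. It had the highest level of the transcription regulators among the 10 genes at both days. Lmo2 fell by 2.91 on the log2 scale (SE 0.14, 95% interval -3.31 to -2.51, limma adjusted p = 0.00462). Its log2 fold change stayed between -2.98 and -2.45 over 22 other settings of the fit, and 20 of these passed the threshold.

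Gata1, the GATA factor of red cells and megakaryocytes, lies on chromosome X (7959260-7976663) and had the lowest day 0 mean of the 10 genes after Hba-x. Its vials ranged from 0.677 to 2.22 FPKM at day 0, with a median of 1.83 FPKM, and from 0.057 to 0.383 FPKM at day 4, with a median of 0.190 FPKM. The days did not overlap, and the lowest day 0 values were again those of the mix 3 and mix 4 vials of replicate 2. Gata1 fell by 2.40 on the log2 scale (SE 0.45, 95% interval -3.65 to -1.15, limma adjusted p = 0.0300). It fell by 2.63 without these 2 vials (adjusted p = 0.00621), and with them alone in day 0 replicate 2 the log2 fold change was -2.07 and missed the threshold (adjusted p = 0.190). It also missed the threshold without day 0 replicate 1 (-2.01, adjusted p = 0.0888), and after the GC correction it was -1.75 (adjusted p = 0.00931). With an offset of 1 FPKM in place of 0.1 the log2 fold change of Gata1 was -1.06.

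Gata2, the GATA factor of early blood progenitors and endothelium, lies on chromosome 6 (88193891-88207032). Its vials ranged from 2.61 to 6.67 FPKM at day 0, with a median of 4.95 FPKM, and from 4.08 to 5.26 FPKM at day 4, with a median of 4.48 FPKM. The days overlapped, with day 0 replicate 1 at a mean of 5.84 FPKM, day 0 replicate 2 at 3.40 FPKM and the day 4 means of 4.45 and 4.59 FPKM between them. The log2 fold change was 0.02 (SE 0.33, 95% interval -0.90 to 0.94, limma adjusted p = 0.969). It was -0.09 without the 2 vials that stood apart. After the GC correction it was 1.1 (limma adjusted p = 0.107), or with the replicate block as well an adjusted p of 0.00994. The corrected level of Gata2 was 2.11 FPKM in day 0 replicate 1 and 2.15 FPKM in the mix 1 and 2 vials of replicate 2. In the mix 3 and 4 vials of that same RNA it was 6.99 FPKM, against a day 4 mean of 6.87 FPKM. The GC content of its transcript was 58.2%.

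Hba-x, the embryonic zeta-like alpha globin, lies on chromosome 11 (32276600-32278116). Lowest and highest vials of Hba-x were 0.049 and 0.323 FPKM at day 0, with a median of 0.253 FPKM, and 5.84 and 15.4 FPKM at day 4, with a median of 8.56 FPKM. Every day 4 vial was above every day 0 vial, and the means of day 4 replicates 1 and 2 differed, at 12.1 and 6.71 FPKM. Hba-x rose by 4.85 on the log2 scale (SE 0.38, 95% interval 3.77 to 5.93, limma adjusted p = 0.00665). It rose by 4.71 without the 2 vials that stood apart and by 5.56 after the GC correction, and with an offset of 1 FPKM it rose by 3.04.

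Hbb-bh1, the embryonic beta-like globin on chromosome 7 (103841638-103843162), was already among the most abundant of the 10 genes at day 0. Its vials ranged from 19.8 to 43.7 FPKM at day 0, with a median of 35.3 FPKM, and from 57.3 to 80.6 FPKM at day 4, with a median of 69.6 FPKM. The vials of the days did not overlap, but the RNA samples of a day were less alike than for Kdr or Lmo2, with means of 40.7 and 26.7 FPKM at day 0, against 76.9 and 62.5 FPKM at day 4. The log2 fold change was 1.07 (SE 0.27, 95% interval 0.30 to 1.84, limma adjusted p = 0.0564), just outside the threshold. In both days replicate 2 was below replicate 1, and with the replicate block the adjusted p was 0.00157. Without the 2 vials that stood apart the log2 fold change was 0.93 (adjusted p = 0.0154). After the GC correction it was 0.94 (limma adjusted p = 0.0490).

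The globin genes are related in sequence, so the transcripts of Hba-x, Hbb-bh1 and Hbb-y were compared with those of the other globin genes. Of the 100-base words of these transcripts (702, 514 and 534), 0 occurred in a transcript of another globin gene, and the same held for words of 50 bases (752, 564 and 584). The adult globins Hba-a1 and Hba-a2, and Hbb-b1, Hbb-b2 and Hbb-bt, were not compared with each other in this way. How the reads were split among them is uncertain.

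**Figure D3:**
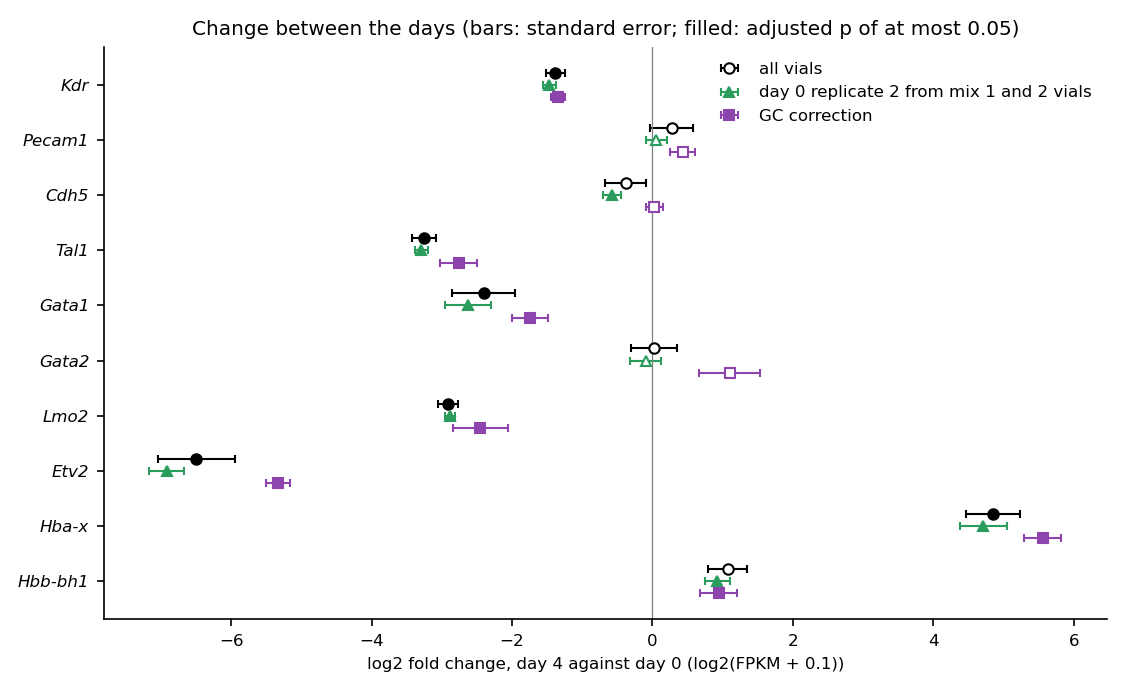
Log2 fold change of each gene, day 4 against day 0 (x axis), with the standard error as a bar, for all vials, for day 0 replicate 2 from its mix 1 and 2 vials, and after the GC correction. Filled symbols have an adjusted p of at most 0.05. Cdh5 and Hbb-bh1 are filled without the 2 vials but not with all vials, and Gata2 moves furthest with the GC correction among the genes near 0.

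At day 0 the levels ran, from the highest mean down, Lmo2 (59.1 FPKM), Kdr (45.0), Hbb-bh1 (33.7), Tal1 (20.5), Etv2 (11.9), Pecam1 (9.80), Cdh5 (5.25), Gata2 (4.62), Gata1 (1.56) and Hba-x (0.217). Among neighbours in this order, the ranges of the RNA samples overlapped for Etv2 and Pecam1 and for Cdh5 and Gata2, and were separate for the other pairs. At day 4 the order was Hbb-bh1 (69.7 FPKM), Kdr (17.2), Pecam1 (11.6), Hba-x (9.40), Lmo2 (7.78), Gata2 (4.52), Cdh5 (3.91), Tal1 (2.06), Gata1 (0.214) and Etv2 (0.019). At day 4 they overlapped for Pecam1 and Hba-x and for Hba-x and Lmo2. After the GC correction the order within day 0 replicate 1 differed. There were then 43.0 FPKM of Hbb-bh1 and 40.8 FPKM of Kdr, above the 36.1 FPKM of Lmo2. This did not hold throughout replicate 2. Its mix 1 and 2 vials had 48.1 FPKM of Kdr, 43.9 FPKM of Lmo2 and 34.1 FPKM of Hbb-bh1. In its mix 3 and 4 vials Lmo2, at 106 FPKM, was above Kdr (47.3 FPKM) and Hbb-bh1 (20.4 FPKM). Corrected Pecam1, at 10.3 FPKM in replicate 1, was above Etv2, at 5.77 FPKM. In replicate 2 Pecam1 was also above Etv2, at 9.11 against 6.0 FPKM (mix 1 and 2) and 6.10 against 3.14 FPKM (mix 3 and 4).

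Tal1, Lmo2 and Pecam1 had more than 1 RefSeq row. Over the 28214 transcripts tested, 10.2% rose and 8.67% fell, and of the 15 rows of the 10 genes 1 rose and 6 fell. Without the 2 vials 2 of these rows rose and 10 fell (22.2% and 28.9% of all transcripts). With the replicate block 2 rose and 8 fell (14.7% and 20.9%). With day 0 replicate 2 from its mix 3 and 4 vials, 0 transcripts passed in limma, and 5942 had an unadjusted p of at most 0.05. Tal1 NM_011527 ranged from 6.54 to 18.5 FPKM at day 0 and from 1.80 to 2.20 FPKM at day 4, and fell by 2.62 (SE 0.32, limma adjusted p = 0.0236). Tal1 NM_001287388 ranged from 4.67 to 16.3 FPKM in day 0 replicate 1, had 8.0, 1.5, 0 and 0 FPKM in the vials of mixes 1 to 4 of day 0 replicate 2, and was listed at 0 in all day 4 vials. It made up 53.0% of the Tal1 level in day 0 replicate 1 and 12.2% in day 0 replicate 2. Its share ranged from 22.8% to 71.3% between the vials of replicate 1, which are splits of a single RNA, although the sum of both rows only ranged from 20.5 to 22.9 FPKM there.

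For Lmo2, NM_001142335 carried 80.1% to 94.2% of the level in the vials of day 0 replicate 1, 90.7% to 100% in replicate 2 and 100% at day 4. It fell by 2.79 (SE 0.16, limma adjusted p = 0.0155). NM_001142336, NM_001142337 and NM_008505 reached at most 6.84, 5.07 and 0.934 FPKM at day 0 and were listed at 0 in all day 4 vials. They were also listed at 0 in the mix 3 and mix 4 vials of day 0 replicate 2, so the loss of these rows moved with the vial as well as with the day. NM_001142336 and NM_001142337 have the same length (1529 bases), and the split of reads between them is uncertain. For Pecam1 the proportions were similar between RNA samples, with NM_001032378 at 64.7% to 71.4% of the mean level in the 4 RNA samples, and neither row passed the test. The single row of Gata1 missed the threshold in the transcript fit (limma adjusted p = 0.0508), with the same values as in the gene fit.

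**Figure D4:**
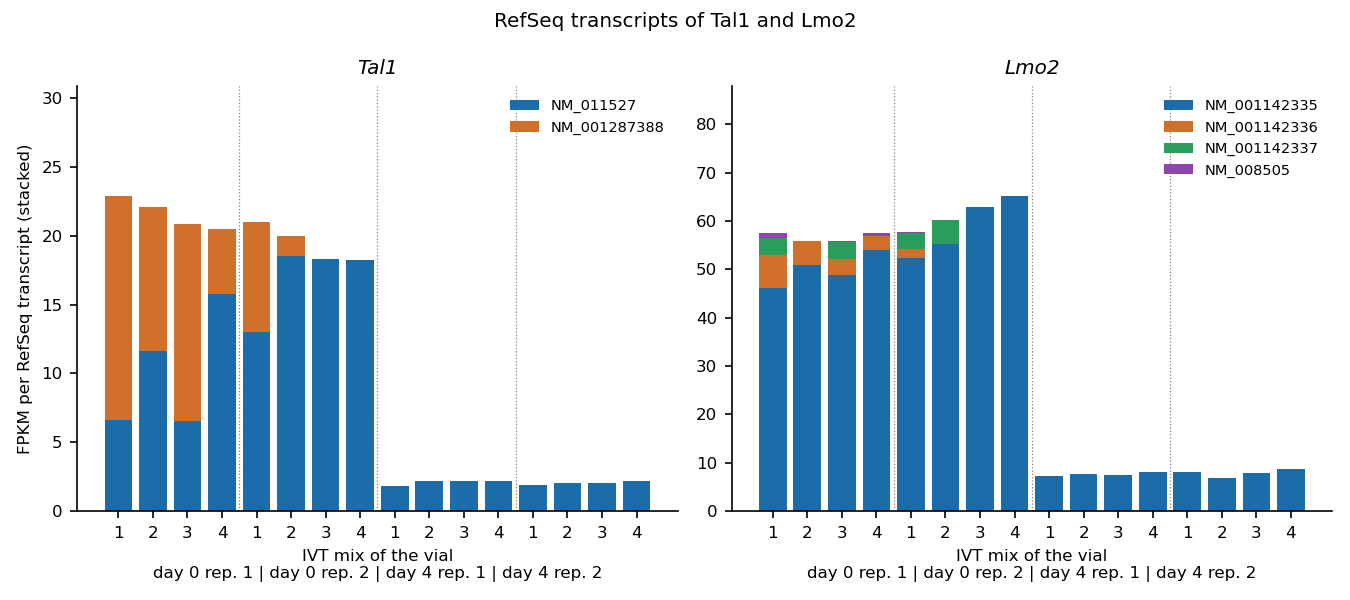
Stacked FPKM (y axis, from 0) of the RefSeq transcripts of Tal1 and Lmo2 in the 16 vials (x axis: IVT mix, in the order of the 4 RNA samples). The summed level is even within a day, while the split between the rows varies from vial to vial at day 0 and a single row remains at day 4.

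The promoter windows of these genes, from 250 bases before to 50 bases after the start of a RefSeq transcript (GRCm38.p6), were searched on both strands for the letters that blood and endothelial factors are known to bind. There were 8 windows, of 6 of the 10 genes, namely Tal1, Kdr, Gata2, Etv2, Hba-x and Gata1. The GATA letters (AGATAA or TGATAA) occurred in 2 of the 8 windows, of Hba-x and Tal1, and in 18.6% of all 32851 windows. The ETS letters (GGAAGT) occurred in 1 of the 8, of Kdr, and in 23.8% of all windows. The stretches around these matches are shown because they hold letters known to be bound by factors of the families of Gata1, Gata2 and Etv2. Each has 30 bases, on the strand of the gene and 5′ to 3′, with the match or its reverse complement in capitals. Distances are to the start of a RefSeq transcript. For Kdr this start and its window lie within the span of the gene given above.
Hba-x, chr11:32276480-32276509, plus strand, 108 bases before the start: tgttgctggctcTGATAAcaggctccaccc
Tal1, chr4:115056209-115056238, plus strand, 205 bases before the start: ctatagagtcttTTATCTttgagcaattcc
Kdr, chr5:75978655-75978684, minus strand, 217 bases before the start: tggctacattttACTTCCaccagaaaccga
The E-box letters (CANNTG), which Tal1 and its partners bind, occurred in 5 of the 8 windows and in 72.3% of all windows. The KLF letters (CCACACCC) occurred in 3.56% of all windows and in 0 of the 8. A match is a description of the letters and not evidence of binding.

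The VEGF ligands, receptors and co-receptors around Kdr comprised 9 genes, of which 3 rose, 4 fell and 2 did not pass the test, with a median log2 fold change of -0.85. The ligands Vegfa (log2 fold change 1.09, SE 0.25, limma adjusted p = 0.0456), Vegfc and Pgf rose, the last from 2.23 and 1.2 FPKM in the 2 RNA samples at day 0 to 9.02 and 8.01 FPKM at day 4. The receptor Flt1 fell by 1.27 (limma adjusted p = 0.0384), and of the co-receptors, Nrp1 fell by 0.94 and Nrp2 fell by 2.26. Of the ligands, Vegfd also fell, from 0.221 and 0.168 FPKM to 0.067 and 0.057 FPKM. With the replicate block, and also without the 2 vials, 6 of the 9 fell. After the GC correction the median of the list was -0.15.

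Among 13 genes of angiopoietin, apelin and Notch signalling in vessels, 4 rose, 4 fell and 5 did not pass the test, with a median of 0.15. Angpt1, the ligand of the receptor Tek, rose from 0.726 and 0.894 FPKM to 38.0 and 42.3 FPKM (log2 fold change 5.47, SE 0.20, limma adjusted p = 0.00462). Angpt2 rose from 0.186 and 0.144 FPKM to 5.62 and 5.95 FPKM, and of the Notch targets Hey1 and Hey2, the first rose by 2.38 and the second fell by 2.15. The apelin receptor Aplnr fell by 3.27 and the TGF-beta co-receptor Eng fell by 3.73. Tek itself fell, from 6.79 and 5.81 FPKM to 2.87 and 2.91 FPKM. With the replicate block, and also without the 2 vials, 6 genes of this list fell. The median was -0.15 without the 2 vials and 0.37 after the GC correction, when 7 rose and 5 fell.

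Among 12 endothelial transcription factors, 3 rose, 3 fell and 6 did not pass the test, with a median of -0.39. Nr2f2, known for venous identity, rose from 0.103 and 0.123 FPKM to 62.2 and 72.5 FPKM (log2 fold change 8.30, SE 0.21, limma adjusted p = 0.00462), and is also expressed in mesenchyme and other tissues. Foxc2 and Foxc1 rose by 6.10 and 2.90. The ETS factor Fli1 fell by 2.08, from 25.5 and 27.7 FPKM to 5.94 and 6.46 FPKM, while Ets1 had 31.2 and 29.5 FPKM at day 0, against 23.3 and 24.4 FPKM at day 4, and did not pass the test (limma adjusted p = 0.130). The median of the list was 0.24 after the GC correction.

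The 16 endothelial surface, junction and matrix genes gave 4 that rose, 1 that fell and 11 that did not pass the test, with a median of 0.54. Emcn, an endothelial sialomucin, rose from 0.109 and 0.105 FPKM to 12.9 and 13.1 FPKM, and Cd34 and Cd93 rose by 3.30 and 4.61. Egfl7, a secreted endothelial protein, fell by 2.38 (SE 0.46, limma adjusted p = 0.0328). Podxl and Mcam had log2 fold changes of 0.33 and 0.91 and did not pass the test (limma adjusted p = 0.250 and 0.120). The count that rose was 7 with the replicate block and 12 after the GC correction, with a median of 1.75. Without the 2 vials 5 rose and 3 fell.

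The partners of the Tal1, Lmo2 and Gata complexes comprised 11 genes, of which 2 rose, 3 fell and 6 did not pass the test, with a median of -0.64. Zfpm1, the cofactor of Gata1 known as FOG1, fell by 3.55 (SE 0.78, limma adjusted p = 0.0410), and Lyl1, a close relative of Tal1, fell by 3.16. Both differed between the RNA samples of day 0, at 18.3 and 4.6 FPKM for Zfpm1 and 2.62 and 0.692 FPKM for Lyl1. Tcf12, an E protein that pairs with Tal1, and Ssbp2 rose by 1.17 and 2.49. Ldb1, which links Lmo2 to distant DNA-bound complexes, had 55.2 and 22.4 FPKM at day 0, against 25.7 and 19.7 FPKM at day 4, and did not pass the test (limma adjusted p = 0.378). Ssbp3 had a log2 fold change of -0.28 (limma adjusted p = 0.391). With the replicate block, and also without the 2 vials, 5 genes fell. After the GC correction 3 rose and 4 fell, with a median of 0.02.

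Of 12 blood transcription factors 2 rose, 5 fell and 5 did not pass the test, with a median of -1.47. Myb, a factor of blood progenitors, fell from 3.20 and 3.21 FPKM to 0.282 and 0.275 FPKM (log2 fold change -3.13, SE 0.23, limma adjusted p = 0.00589). Bcl11a, known for its role in globin switching and also expressed in neurons, rose by 3.53, and Mecom rose by 3.03. Runx1 and its partner Cbfb did not pass the test, with log2 fold changes of -0.46 and 0.64 (limma adjusted p = 0.162 and 0.156). Klf1, the erythroid Kruppel-like factor, had 0.312 and 0.176 FPKM at day 0, against 0.216 and 0.165 FPKM at day 4, and did not pass the test either. With the replicate block, and also without the 2 vials, 3 rose and 7 fell. The median was -0.71 after the GC correction.

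The erythroid list had 18 genes, of which Ahsp was not in the table, 1 was listed at 0 in all libraries and 16 were tested. The rows of Hbb-b2 and Hbb-bt held the same values in every library, so these 2 of the 16 are a single measurement. Of the 16 genes tested, 9 rose, 1 fell and 6 did not pass the test, with a median of 1.32. Hbb-y, the embryonic beta-like globin next to Hbb-bh1, rose from 2.42 and 1.43 FPKM to 93.5 and 58.7 FPKM (log2 fold change 5.24, SE 0.38, limma adjusted p = 0.00583). At day 4 its range overlapped that of Hbb-bh1, and like Hba-x it was lower in replicate 2 than in replicate 1. Hba-a1 rose from 1.27 and 0.308 FPKM to 6.70 and 7.53 FPKM, and Hba-a2, listed at 0 at day 0, had 12.8 and 3.37 FPKM at day 4. Slc4a1 and Epb42, genes of the red cell membrane, rose at low levels, the latter from 0.415 and 0.363 FPKM to 1.41 and 1.48 FPKM. Tfrc, the transferrin receptor that many dividing cells express, had 178 and 292 FPKM at day 0, against 110 and 132 FPKM at day 4, and did not pass the test (limma adjusted p = 0.0944). Without the 2 vials 10 rose and 5 fell, and with the replicate block 10 rose and 3 fell.

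Among 11 blood surface and megakaryocyte genes 5 rose, 3 fell and 3 did not pass the test, with a median of 0.41. Pf4, a platelet chemokine, rose from 0.019 and 0.072 FPKM to 6.62 and 3.87 FPKM (log2 fold change 5.18, SE 0.40, limma adjusted p = 0.00646). The megakaryocyte genes Itgb3 and Treml1 rose by 2.20 and 2.46, the latter to 0.654 and 0.330 FPKM. Kit, the receptor of blood progenitors and germ cells, fell by 1.38, and Cd44 fell by 3.12. With the replicate block, and also without the 2 vials, 5 genes fell.

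**Figure D5:**
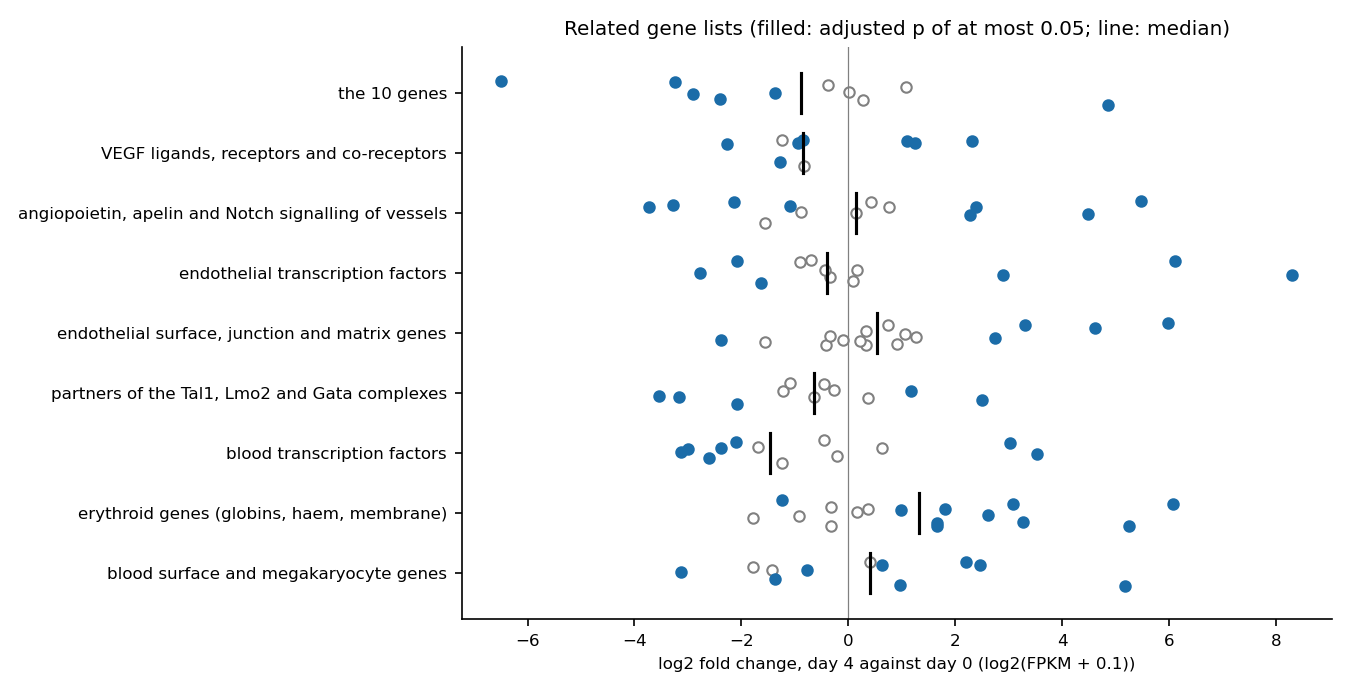
Log2 fold change, day 4 against day 0 (x axis), of the genes of each list (rows). Each point is a gene, filled points have an adjusted p of at most 0.05 and the black line is the median of the list. In the row of the 10 genes Hba-x lies to the right, and 4 of the 5 genes that fell are transcription regulators.

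Other cell types changed in the same EBs, and their part in the values above was not tested. The label names the samples as embryonic stem cells, and 7 of 8 pluripotency markers fell, with summed levels of 155 and 84.9 FPKM in the day 0 RNA samples and 11.8 and 7.36 FPKM at day 4. Pou5f1 had 87.3 and 37.2 FPKM at day 0, against 1.04 and 0.693 FPKM at day 4. Markers of the primitive streak and early mesoderm, in which cells with Etv2 and Kdr arise, fell in 7 of 8 cases, from summed levels of 173 and 151 FPKM to 38.9 and 37.0 FPKM. The exception was Pdgfra, which rose to 38.2 and 36.3 FPKM and so made up nearly the whole sum at day 4. Trophoblast markers, several shared with other epithelia and with early mesoderm, had 5 of 6 genes that fell, with sums of 583 and 250 FPKM at day 0, against 22 and 16.5 FPKM at day 4.

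Visceral endoderm markers rose in 7 of 8 cases, from 16.1 and 14.7 FPKM to 82.8 and 82.4 FPKM in sum. Gata6 and Gata4, with day 4 means of 54.4 and 18.6 FPKM, made up most of the sum at day 4. The day 4 means of Afp, Ttr, Hnf4a and Foxa2 were only 0.773, 0.534, 0.158 and 0.825 FPKM. Those of Apoa1 and Dab2 were 1.335 and 5.89 FPKM. Whether visceral endoderm cells increased was not tested. Of the neural markers 3 of 7 rose and 2 fell, of the cardiac markers 2 of 6 fell, and of the markers of mural cells, which surround vessels, 1 of 6 fell. Both of the last counts were 4 of 6 without the 2 vials and with the replicate block, and after the GC correction 3 cardiac and 4 mural markers fell. Leukocyte markers had summed levels of 6.20 and 2.75 FPKM at day 0, against 0.826 and 0.514 FPKM at day 4, 3 of 7 fell, and their defining gene Ptprc (CD45) was at or below 0.010 FPKM in the 4 RNA samples.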

How the data were processed

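RNA-Seq libraries were paired-end. According to the study's methods, the authors mapped reads with Bowtie2 2.1.0 to RefSeq transcripts of mm10 with the spike-ins, estimated abundance with RSEM 1.2.18 and deposited FPKM per transcript, scaled by a TMM factor per library. Reads per transcript are not in this table, so depth per value is unknown and no counting interval is given. Library FPKM sums ranged from 411090 to 622888. The assignment of vials to RNA replicates follows the study's sample table, and 0 columns were without a sample.

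The values of a gene are the sum of its transcript rows (98.6% of rows had a symbol), averaged over the 4 vials. Genes at 0 everywhere (3679) were left out. limma 3.58.1 in R 4.3.3 (lmFit, eBayes with trend) was applied to log2(FPKM + 0.1), 2 RNA samples against 2, two-sided, with Benjamini-Hochberg adjustment over 20543 genes or 28214 transcripts and a threshold of 0.05. The fit was tested on simulated data. Tables were handled with pandas 2.3.3. For the GC correction, each library was scaled in 20 GC bins over 13894 transcripts to the mean of all libraries. This may take out true differences that follow GC content. Between the mix 1 and 2 vials and the mix 3 and 4 vials of day 0 replicate 2, the difference widened for Gata2, Lmo2, Tal1 and Hbb-bh1. It narrowed for Kdr, Pecam1, Cdh5, Gata1, Etv2 and Hba-x.

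Replicate numbers mark a repeat of the whole procedure, so they pair the RNA samples of the days. The difference between replicates 1 and 2 was correlated between the days (r = 0.767 across 11603 genes, 0.541 after GC correction, genes not being independent replicates). The main fit had no replicate block and so left this pairing out. The study reports no test of differential expression between the days, and its ANOVA between mixes names no replicate term. For Hbb-bh1 this choice decided the call (limma adjusted p = 0.0564 without the block and 0.00157 with it).

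The 10 genes and the lists were chosen with earlier results of these data known. Named were all 10 genes, of each list the up to 3 with the highest mean and the up to 3 called with the largest change, and other genes where a count or direction called for them, chosen after their values were seen. Locations, promoters and GC content come from RefSeq and GENCODE tables of GRCm38.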

Additional observations from a re-analysis of the deposited data

Results flagged for a closer look

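The mix 2 vial of day 4 replicate 2 had 5.26 FPKM of Gata2, while the other 7 day 4 vials had 4.08 to 4.63 FPKM, a gap larger than Dixon's 95% limit for 8 libraries. This was 1 of 32 groups of libraries examined, and chance gives about 1 in 20.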

How the results depend on the processing

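The fit was repeated under 22 other settings, of which 3 (other vials for day 0 replicate 2) were chosen after seeing the data. Tal1, Lmo2 and Hba-x kept their direction in all 22 and passed the threshold in 20, Kdr and Etv2 in 17, Gata1 in 14 of 21 (it was not tested with a minimum mean of 1 FPKM), Hbb-bh1 in 9, Cdh5 in 4, and Pecam1 and Gata2 in 1. With all vials 1 of the 10 genes rose and 5 fell. The number that rose was 2 after rescaling each library to a sum of 1000000, with 16 libraries and the RNA sample as a random block, with only mix 1 or only mix 2 vials, with the replicate block, with the GC correction and with day 0 replicate 2 from its mix 1 and 2 vials or its mix 1 vial, and 4 with the GC correction and replicate block. The number that fell was 2 with only mix 4 vials, only mix 3 vials or day 0 replicate 2 from its mix 3 and 4 vials. Leaving out 1 RNA sample gave 0 to 1 that rose and 0 to 6 that fell. The replicate block changed the call of no other of the 10 genes than Hbb-bh1. The cause of these changes was not tested.

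The log2 fold change changed sign for Pecam1 (-0.12 with only mix 1 vials), for Cdh5 (0.024 with the GC correction, with or without the replicate block) and for Gata2 (-0.31 with only mix 1 vials, -0.095 and -0.20 with day 0 replicate 2 from its mix 1 and 2 vials or its mix 1 vial). Leaving out 1 RNA sample gave -0.073 to 0.62 for Pecam1 and -0.36 to 0.40 for Gata2. The Pecam1 row NM_008816 was at -0.40 with only mix 1 vials. Leaving out 1 RNA sample gave -0.087 to 0.59 for NM_001032378, -0.053 to 0.66 for NM_008816 and -1.29 to 0.0053 for Ldb1. Among other genes, Ldb1 was at 0.056 with only mix 3 vials and 0.88 with the GC correction, with or without the replicate block. Runx1 and Ssbp3 were at 0.022 and 0.39 with the GC correction, with or without the replicate block. Over the 41 other named genes, 705 values kept direction and call, 150 no longer passed the threshold, 37 newly passed it and 8 changed sign.

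Of all genes, 3281 rose and 2972 fell. With a minimum mean of 1 FPKM 2092 rose, and with no filter 1641 fell. With 16 libraries and a random block 4581 fell, and with the replicate block 5979 fell. With only mix 1, 2, 3 or 4 vials, 5148, 4392, 397 and 838 rose and 7167, 5235, 80 and 283 fell. With the GC correction 5650 rose and 4995 fell, and with the replicate block added 6089 and 5570. With day 0 replicate 2 from its mix 1 and 2 vials, its mix 1 vial, or its mix 3 and 4 vials, 5555, 5735 and 1001 rose and 6889, 7194 and 337 fell. Leaving out 1 RNA sample gave 0 to 3892 that rose and 0 to 5917 that fell.

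Of the transcripts, 2875 rose and 2446 fell. With no filter 1385 fell, with the mean of log2 values 1462 fell and with the replicate block 5898 fell. With 16 libraries and a random block 5500 rose and 5409 fell. With only mix 1 vials 5491 rose and 8041 fell, with only mix 2 vials 4752 fell, and with only mix 3 vials, only mix 4 vials or day 0 replicate 2 from its mix 3 and 4 vials 0 rose and 0 fell in limma (4324, 5313 and 5942 had an unadjusted p of at most 0.05). With the GC correction 5256 rose and 4883 fell, and with the replicate block added 5283 and 5285. With day 0 replicate 2 from its mix 1 and 2 vials or its mix 1 vial, 6262 and 6419 rose and 8155 and 8367 fell. Leaving out 1 RNA sample gave 0 to 3355 that rose and 0 to 5195 that fell.

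With 2 RNA samples per day, leaving out either day 4 replicate left a single day 4 sample, assumed to vary like day 0. Rescaling each library to 1000000 moved the median log2 fold change of genes with a mean of at least 1 FPKM from -0.15 to 0.12. The table holds no read counts, so differences near 0 FPKM could not be judged against counting error.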
